A study of Homo sapiens with 18 samples.

Results

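The baseline of 2 human colorectal cancer cell lines was compared: LoVo cells carrying an empty vector (LoVo EV) against DLD-1 cells carrying an empty vector (DLD-1 EV). The comparison used 6 of the 18 RNA-seq libraries of the series, 3 of each group, and every gene with a level of 1 TPM or more in at least 3 of these 6 libraries, which left 16038 of 61806 listed genes. TPM, which states a transcript's abundance relative to all transcripts of its library with transcript length taken into account, is on 1 scale for all genes, so that genes can be set side by side. PLAAT5 and CHSY3 lay just inside this limit, with 1.0004 and 1.0011 TPM in the library that decided, and MLANA and CD22 just outside, with 0.9991 and 0.9987 TPM.

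Both lines were grown under the same stated conditions, in DMEM with serum, and the EV cells received no drug. The other 12 libraries came from cells of both lines made to overexpress LIN28B, which keeps let-7 microRNAs from being processed to their mature form, with or without 5 µM alpelisib, a drug against the PI3K catalytic subunit encoded by PIK3CA. Total RNA was enriched for poly(A) RNA before library preparation. Each group is a single line, nothing in the labels says whether the EV cells were a pool or a clone or whether replicates came from separate cultures, and p-values therefore measure the spread between these libraries, which may be technical. Any property in which the EV cultures differed, line, passage or handling, cannot be told apart here.

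As background, the colon lining renews itself from stem cells at the crypt base that depend on Wnt signals, and their progeny become absorptive colonocytes or mucus-secreting goblet cells under the control of transcription factors such as CDX2, HNF4A, KLF5, FOXA1 and ATOH1. Carcinomas keep parts of this program to a varying degree, with keratin 20, villin and cadherin 17 as marks of differentiation. LoVo and DLD-1 both come from colorectal adenocarcinomas with defective DNA mismatch repair, in DLD-1 through loss of MSH6, and both carry mutated APC. LoVo is known for mutated B2M and FURIN, and DLD-1 for mutated PIK3CA.

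Between 23010 and 25004 genes were above 0 TPM in each library, and since TPM holds no read counts the depth of sequencing is unknown. Pearson's r of log2(TPM + 1) across genes, which are not independent replicates, was 0.9674 to 0.9845 within a line and 0.8629 to 0.9017 between lines, the highest values between lines being those of LoVo EV replicate 3. The share of TPM from mitochondrial genome transcripts was 24.02%, 23.06% and 14.52% in LoVo EV and 9.228%, 10.18% and 11.75% in DLD-1 EV, and because TPM has a fixed total this lowers the other values in LoVo EV. Markers of immune cells, fibroblasts and endothelium were low. Of 18 immune markers, 13 were under 1 TPM in all 6 libraries, among them PTPRC, the leukocyte common antigen, and CD3D, CD3E, CD2, MS4A1 and FCGR3A were listed at 0 in all 6; their summed level was 12.93 to 22.13 TPM in LoVo EV and 8.807 to 10.58 TPM in DLD-1 EV. Of 11 fibroblast markers, 8 stayed under 1 TPM, with COL1A2, POSTN and DCN at 0 throughout, and the sum was 22.92 to 26.48 against 9.944 to 12.62 TPM. Of 10 endothelial markers, 6 stayed under 1 TPM, with EMCN and CDH5 at 0, and the sums were 2.811 to 5.807 and 3.917 to 6.277 TPM. Colon epithelial markers were present in both lines, at a summed 7535 to 8478 TPM in LoVo EV and 13550 to 13730 TPM in DLD-1 EV.

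The genes known to differ by genotype were read next, as a check of the labels. MSH6, a mismatch recognition protein mutated in DLD-1, stood at 16.5, 18.3 and 20.8 TPM in LoVo EV and at 10.49, 9.66 and 9.75 TPM in DLD-1 EV. All LoVo EV values lay above all DLD-1 EV values (0.83 log2, limma, adjusted p = 0.00119). B2M, the light chain of MHC class I, measured 144, 157 and 233 against 218, 207 and 206 TPM with overlapping values and was not called (limma, adjusted p = 0.206). Without LoVo EV replicate 3, B2M was called lower (-0.48 log2, limma, adjusted p = 0.00109). An RNA level does not test a mutation, and no variant was read here. The libraries labelled LoVo LIN28B stood apart from LoVo EV: CD74 measured 3.16, 2.72 and 1.61 TPM there, close to the 0.794, 1.39 and 2.61 TPM of DLD-1 LIN28B and far below LoVo EV, while CALB1, at 246, 219 and 206 TPM, stayed far above every DLD-1 library. The line behind the LoVo labels could not be checked from these files, and each statement on LoVo below rests on the 3 libraries labelled LoVo EV.

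Differences between the lines were widespread. Of the 16038 genes tested, 9014 (56.2%) passed an adjusted p of 0.05 (limma on log2(TPM + 1), Benjamini-Hochberg over all genes), 2774 (17.3%) higher and 6240 (38.9%) lower in LoVo EV. With a log2 difference of at least 1 added, that is 2-fold on the log2(TPM + 1) scale, 1384 genes (8.63%) were higher and 2189 (13.6%) lower. Without reference to a test, the 3 values of LoVo EV lay above the 3 of DLD-1 EV for 3272 genes (20.4%) and below them for 6863 (42.8%). The median log2 difference over all genes was -0.25, with quartiles of -0.72 and 0.27, so the excess of lower calls depends on the scale: with median-of-ratios scaling the calls were 4106 higher and 4512 lower, and the median was -0.02. With the 2-fold limit the order turned, to 1816 higher and 1297 lower under that scaling and to 1718 higher and 1603 lower in TPM without the mitochondrial genome. Log2 differences below are LoVo EV minus DLD-1 EV on the TPM scale and can be read against that median of -0.25. Counts of list members called can likewise be read against the 17.3% higher and 38.9% lower over all genes tested. A member under 1 TPM in every library of 1 line passed the filter only through the other line, so its direction was fixed by the filter. In bulk RNA, fewer cells that express a gene and less of its RNA per cell cannot be told apart.

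**Figure D1:**
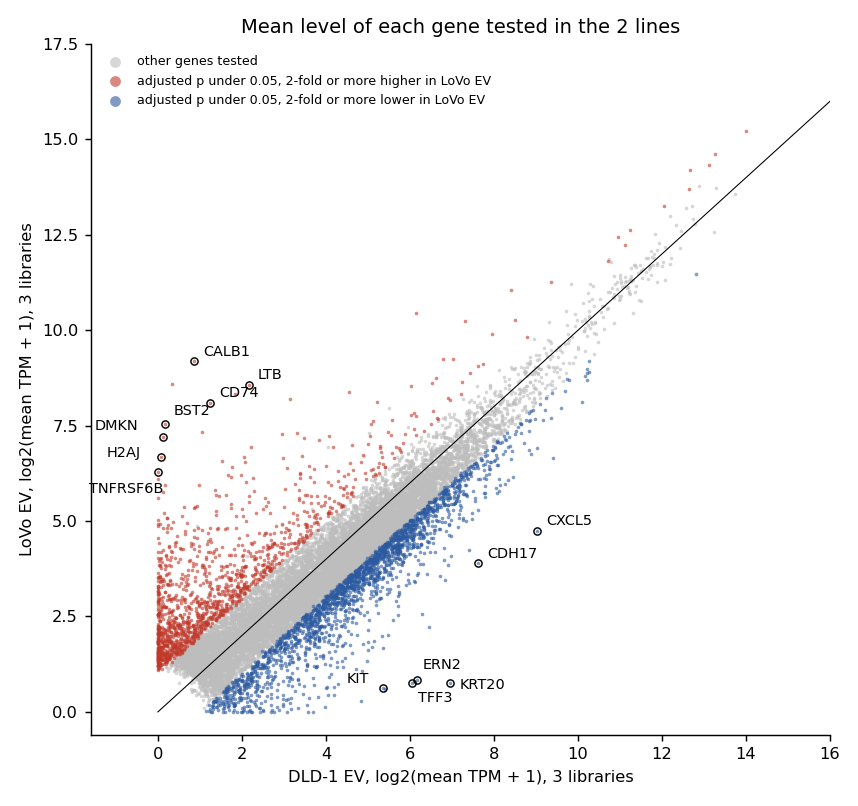
Mean level of the genes tested, as log2(mean TPM + 1) of 3 libraries, in DLD-1 EV (horizontal axis) and LoVo EV (vertical axis); coloured genes passed an adjusted p of 0.05 with a log2 difference of 1 or more, the line marks equal levels, and 13 genes are named. CALB1, CD74, BST2, LTB, DMKN, H2AJ and TNFRSF6B lie at the upper left, low in DLD-1 EV (mean of 3.46 TPM for LTB, the highest of them). KRT20, TFF3, ERN2 and KIT lie at the lower right.

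The differences were largest for genes close to silent in 1 of the lines. CALB1, the calcium buffer calbindin, reached 489.9, 518 and 745 TPM in the LoVo EV libraries and 1.38, 0.417 and 0.671 TPM in those of DLD-1 EV (8.34 ± 0.23 log2, SE; limma, adjusted p = 2.36e-07). Next came the long non-coding RNA LINC02582 (388 ± 32.4 against 0.267 ± 0.253 TPM), BST2, DMKN, which encodes the secreted epidermal protein dermokine (147 ± 6.95 against 0.0925 ± 0.160 TPM), CD74, the histone variant H2AJ (101 ± 4.71 against 0.0484 ± 0.0642 TPM; SD, n = 3 for all), SUGCT, an enzyme of glutarate metabolism, LTB, ADIRF, TNFRSF6B, GTSF1, a germline factor of transposon silencing, and ABHD12B. Their log2 differences ran from 5.78 for ABHD12B to 8.34 for CALB1, and each of these 12 genes had all LoVo EV values above all DLD-1 EV values, by the rule that chose them. GTSF1 and TNFRSF6B were listed at 0 in every DLD-1 EV library. ABHD12B lies opposite PYGL, and ADIRF opposite ADIRF-AS1; the use of strand in counting is not given in the sources used here, so reads of these pairs may not be separable.

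On the other side, KRT20 led, followed by TFF3 and ERN2, the form of the stress sensor IRE1 found in mucus-producing gut epithelium. ERN2 measured 0.377, 1.098 and 0.904 TPM in LoVo EV against 74.5, 70.5 and 67.9 TPM in DLD-1 EV (-5.35 log2, limma, adjusted p = 6.64e-07). GASK1B, a Golgi protein related to kinases, and KIT, the receptor of stem cell factor, were both under 1 TPM in each LoVo EV library and at 41.6 ± 4.68 and 40.05 ± 0.997 TPM in DLD-1 EV (SD, n = 3). The remaining genes of the 12 were CXCL5, the mitochondrial calcium-binding protein EFHD1 (3.65 ± 0.437 against 86.3 ± 3.12 TPM), RASSF10, the NF-kB scaffold CARD14, the trypsinogen PRSS2, the cadherin CDH17 and the aldehyde dehydrogenase ALDH3A1 (4.94 ± 1.09 against 76.5 ± 2.75 TPM). PRSS2 has near-identical copies and its level is uncertain, and ERN2 overlaps PLK1, so reads may be shared between them. The smallest of these 12 differences was -3.72 log2, for ALDH3A1, so that the largest differences reached further on the LoVo-high side than on the DLD-1-high side.

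Genes of MHC class II were higher in LoVo EV where called. MHC class II molecules display peptides from the endosome to CD4 T cells, are made by specialised immune cells and, after interferon gamma, by epithelium, and need the transactivator CIITA for expression. CD74, the invariant chain that escorts them, stood at 258, 276 and 287 TPM in LoVo EV and at 1.69, 1.49 and 0.940 TPM in DLD-1 EV. It thus stood among the more abundant transcripts in 1 line and near 1 TPM in the other (6.87 ± 0.15 log2, SE; limma, adjusted p = 1.17e-07). HLA-DRA measured 41.1, 34.8 and 45.9 against 0.735, 0.773 and 0.0993 TPM, HLA-DQB1 26.4, 26.9 and 27.7 against 0, 0.0983 and 0.179 TPM and HLA-DPA1 19.03, 18.8 and 23.4 against 0.847, 0.147 and 0 TPM. All 3 chains were well above DLD-1 EV in every LoVo EV library, with log2 differences of 4.78, 4.68 and 4.05. HLA-DRB1 and HLA-DPB1 were lower in level but followed them (2.998 and 2.701 log2). CIITA itself, named after its values were seen, measured 2.998, 3.60 and 5.30 against 0.824, 1.65 and 0.643 TPM (1.29 log2, limma, adjusted p = 0.00306). In all, 9 of the 15 list members tested were higher and 0 lower in LoVo EV, with a median log2 difference of 1.37, and 13 and 0 under median-of-ratios scaling. Of the 9, 6 were under 1 TPM in every DLD-1 EV library and passed the filter on low values through LoVo EV alone, so that the count and the median are no support for a direction, and with a filter of 5 TPM 5 were called higher. The members not called included RFXANK (73.96 ± 5.45 against 68.7 ± 7.58 TPM) and RFX5 (30.2 ± 8.81 against 40.3 ± 5.79 TPM), both subunits of the RFX factor that binds class II promoters; RFX5 was called lower without LoVo EV replicate 3 (-0.65 log2, adjusted p = 0.00814). HLA alleles differ from the reference, and reads of related HLA genes may be shared between them, which was not tested.

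MHC class I showed no such shared direction. HLA-C had a mean of 352 ± 44.1 TPM in LoVo EV and 390.4 ± 17.47 TPM in DLD-1 EV (SD, n = 3), without a call (limma, adjusted p = 0.26). It was called lower without LoVo EV replicate 3 (-0.25 log2, limma, adjusted p = 0.0267). HLA-B was higher in LoVo EV, at 211, 196 and 243 against 61.4, 66.6 and 63.6 TPM (1.74 log2, limma, adjusted p = 9.55e-06), as were the class I transactivator NLRC5 (1.91), the non-classical HLA-F (0.93) and the immunoproteasome subunit PSMB9 (0.82). ERAP2, which trims peptides in the endoplasmic reticulum, was lower, at 7.49, 5.94 and 5.96 against 35.9, 38.6 and 32.2 TPM (-2.29 log2), and so was the loading factor tapasin, TAPBP (-0.71). Of the 21 list members tested, 5 were higher and 7 lower, beside 17.3% and 38.9% over all genes. The list median of -0.11 turned to 0.15 under median-of-ratios scaling, with 10 higher and 3 lower. Leaving out any library other than LoVo EV replicate 3 left 3 or 4 called lower.

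**Figure D2:**
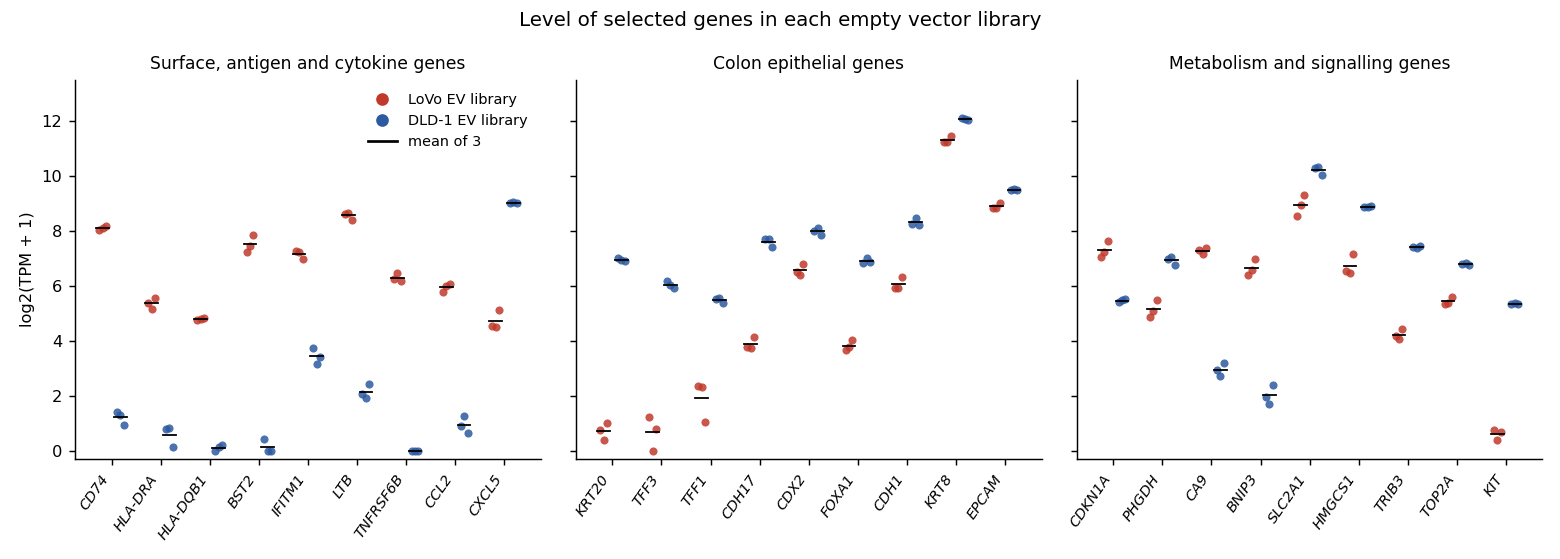
Levels of 27 genes in each empty vector library as log2(TPM + 1), with points for libraries (LoVo EV red, DLD-1 EV blue) and lines for the mean of 3. In every gene drawn the 3 LoVo EV points lie entirely above or entirely below the 3 DLD-1 EV points. CD74, BST2 and TNFRSF6B are low in DLD-1 EV, and KRT20, TFF3 and KIT in LoVo EV.

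Interferon-stimulated genes, which cells switch on when they sense interferon, split between the lines. BST2, or tetherin, which holds budding viruses at the cell surface, was at 149.6, 175 and 229.9 TPM in LoVo EV, against 0.361, 0 and 0 TPM in DLD-1 EV. The difference was 7.37 ± 0.20 log2 (SE; limma, adjusted p = 2.36e-07). IFITM1, a membrane protein that blocks virus entry, measured 156, 151 and 125 against 12.5, 8.06 and 9.78 TPM, IFI6 207, 166 and 185 against 35.9, 28.7 and 34.1 TPM, and MX1, a dynamin-like antiviral GTPase, 34.2, 33.4 and 40.8 against 4.59, 4.26 and 3.30 TPM. Each was higher in all LoVo EV libraries, by 3.72, 2.46 and 2.88 log2. XAF1, a pro-apoptotic member, was at 10.9 ± 1.91 TPM in LoVo EV and at 0 in 2 of the 3 DLD-1 EV libraries. OAS1, a sensor of double-stranded RNA, went the other way, at 22.2, 20.7 and 23.96 against 69.1, 62.7 and 66.1 TPM (-1.53 log2, limma, adjusted p = 1.9e-05). STAT2, at 28.9 ± 2.22 against 34.8 ± 1.84 TPM, was not called, but was lower without LoVo EV replicate 3 (-0.32 log2, limma, adjusted p = 0.0208). Of the 44 members tested, 17 were higher, 11 of them 2-fold or more, and 11 were lower, 2 of them 2-fold or more, with a median of 0.14 log2. Under median-of-ratios scaling the counts were 21 and 6, and without LoVo EV replicate 2, 7 were lower. Over all genes tested 17.3% were higher and 38.9% lower. BST2 and XAF1 passed the filter on low values through LoVo EV alone, so their direction was fixed. IFNB1, IFNG and IFNL1, interferon genes named after their values were seen, were listed at 0 in all 6 libraries.

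The promoters of members that moved were examined for the interferon-stimulated response element, read here as GAAA and GAAACT with any 2 bases between them, on either strand, in the 250 bases before the RefSeq start (build GRCh38.p14). It occurred in 61 of 27305 promoters (0.223%). Among interferon-stimulated genes with a promoter in the table, 10 of the 15 called higher in LoVo EV held it, 0 of the 8 called lower and 3 of the 12 not called; the list and the motif were chosen with results in view, and no test was made. MX1, XAF1 and OAS1, also named above, were not among the 13 tested members found to hold the motif. BST2 (minus strand, chr19:17405631-17405880), IFI6 (minus strand, chr1:27672193-27672442) and IFITM1 (plus strand, chr11:313790-314039) are shown. They were among the members with the smallest p and held the motif, and matches are in capitals, read 5′ to 3′ along the gene.
BST2: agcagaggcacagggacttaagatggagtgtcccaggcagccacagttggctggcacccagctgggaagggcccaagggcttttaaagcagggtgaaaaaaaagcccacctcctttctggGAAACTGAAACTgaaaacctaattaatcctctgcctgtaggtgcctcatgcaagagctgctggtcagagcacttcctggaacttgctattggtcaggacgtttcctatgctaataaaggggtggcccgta
IFI6: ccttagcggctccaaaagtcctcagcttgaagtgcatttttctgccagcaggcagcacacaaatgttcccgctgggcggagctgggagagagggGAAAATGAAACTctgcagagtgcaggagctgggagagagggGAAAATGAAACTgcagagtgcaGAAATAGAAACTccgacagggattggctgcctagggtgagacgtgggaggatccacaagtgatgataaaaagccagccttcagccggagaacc
IFITM1: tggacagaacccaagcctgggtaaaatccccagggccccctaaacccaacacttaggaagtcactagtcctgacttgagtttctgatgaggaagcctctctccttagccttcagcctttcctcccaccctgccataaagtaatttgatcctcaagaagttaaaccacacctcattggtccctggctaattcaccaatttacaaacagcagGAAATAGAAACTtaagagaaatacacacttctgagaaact
The match began 130 bases before the start in BST2 and 40 in IFITM1, and IFI6 held 3, between 156 and 93 bases before it. For MHC class II, the Y box CTGATTGG, bound by NF-Y, was sought on either strand in the same window and occurred in 1088 of 27305 promoters (3.98%). It was found in 2 of the 6 members called higher that have a promoter in the table, and in 2 of the 6 not called. HLA-DQB1 (minus strand, chr6:32666658-32666907) and HLA-DRB1 (minus strand, chr6:32589849-32590098) are the 2 called members that held it, shown as the reference has them with the Y box in capitals.
HLA-DQB1: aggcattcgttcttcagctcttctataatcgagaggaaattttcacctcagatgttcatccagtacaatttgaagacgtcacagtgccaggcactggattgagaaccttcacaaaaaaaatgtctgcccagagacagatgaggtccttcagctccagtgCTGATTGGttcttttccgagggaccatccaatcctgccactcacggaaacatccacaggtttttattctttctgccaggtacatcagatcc
HLA-DRB1: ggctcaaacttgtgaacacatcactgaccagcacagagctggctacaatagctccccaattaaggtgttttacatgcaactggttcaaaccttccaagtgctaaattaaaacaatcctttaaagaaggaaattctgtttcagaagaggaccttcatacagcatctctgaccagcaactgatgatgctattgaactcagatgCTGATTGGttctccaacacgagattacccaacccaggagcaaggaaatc
A match of letters is a description of the reference sequence and not of binding in these cells.

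Genes of the tumour necrosis factor (TNF) superfamily, the ligands and receptors that steer cell death and NF-kB signalling, were divided between the lines. TNFRSF6B (ENSG00000243509; GRCh38 chromosome 20, 63696651 to 63698684, plus strand) encodes decoy receptor 3, a secreted receptor that binds FAS ligand, LIGHT and TL1A. It measured 74.5, 87.3 and 70.98 TPM in LoVo EV and was listed at 0 in all 3 DLD-1 EV libraries and in the other 12 libraries of the series. Its locus overlaps the read-through gene RTEL1-TNFRSF6B on the same strand, named after its values were seen, which measured 14.6, 12.4 and 10.9 against 5.75, 6.68 and 8.12 TPM, and how reads were shared between the 2 was not tested. TNFSF15, which encodes the ligand TL1A, was lower in LoVo EV, at 6.13, 6.596 and 7.48 against 25.4, 26.5 and 25.8 TPM (-1.80 log2, limma, adjusted p = 1.78e-05). LTB, lymphotoxin beta, measured 396, 406 and 340.2 against 3.18, 2.82 and 4.38 TPM (6.43 ± 0.15 log2, SE; adjusted p = 1.49e-07). The receptors CD40 (5.71 ± 1.22 against 0.149 ± 0.170 TPM) and TNFRSF14, which binds LIGHT (49.3 ± 1.42 against 14.8 ± 1.81 TPM), were higher, and EDAR, the ectodysplasin receptor, was lower (0.303 ± 0.113 against 6.18 ± 0.852 TPM; SD, n = 3). Over the list, 11 members were higher and 11 lower of 28 tested, beside 17.3% and 38.9% over all genes. The median of -0.09 turned to 0.16 under median-of-ratios scaling, with 13 higher and 7 lower. TNFRSF6B and CD40 passed the filter on low values through LoVo EV alone, and EDAR through DLD-1 EV alone. With a filter of 5 TPM, 6 were called higher.

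Each line also had its own secreted signals. CXCL5, a chemokine that attracts neutrophils, reached 22.3, 21.98 and 33.6 TPM in the LoVo EV libraries and 520.4, 529.9 and 521 TPM in those of DLD-1 EV (-4.31 log2, limma, adjusted p = 1.06e-06). CCL2, which attracts monocytes, was opposite, at 53.7, 62.6 and 67.0 against 0.897, 1.43 and 0.585 TPM (4.99 log2, adjusted p = 1.07e-06). IL32 (334 ± 40.6 against 22.3 ± 3.16 TPM) and IL23A, a subunit of interleukin 23 (15.8 ± 2.31 against 1.23 ± 0.242 TPM), were higher in LoVo EV, while the alarmin IL33 (2.54 ± 0.632 against 31.2 ± 3.93 TPM) and the interleukin 1 antagonist IL1RN (0.281 ± 0.0412 against 11.1 ± 1.15 TPM; SD, n = 3) were lower. CXCL8, the interleukin 8 gene, was not called, at 9.67 ± 1.81 TPM in LoVo EV and 12.1 ± 2.30 TPM in DLD-1 EV. Of 27 chemokines and cytokines tested, 8 were higher and 12 lower, beside 17.3% and 38.9% over all genes.

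Transcription factors of the intestinal epithelium were mostly lower in LoVo EV. CDX2, the homeobox factor that specifies intestine, stood at 90.3, 83.01 and 111 TPM in LoVo EV and at 257, 272 and 233 TPM in DLD-1 EV (-1.42 log2, limma, adjusted p = 7.12e-05). FOXA1, a pioneer factor of endodermal epithelium, measured 11.8, 12.8 and 15.3 against 114, 129 and 116 TPM. No LoVo EV library reached a DLD-1 EV library for either gene, and FOXA1 differed by -3.08 log2 (adjusted p = 1.52e-06). GATA6 (-2.22), KLF5 (-1.62) and ISX, an intestine-specific homeobox gene listed under 0.2 TPM in LoVo EV (-2.71), had the same sign. ASCL2, a Wnt-dependent factor of crypt stem cells, was higher, at 189, 171 and 155 against 109, 111 and 118 TPM (0.60 log2, adjusted p = 0.00168). In total 16 of 20 factors tested were lower, 15 of them 2-fold or more, and 3 higher (1 when LoVo EV replicate 1 or 2 or DLD-1 EV replicate 1 or 2 was left out); the median of -1.32 log2 became -1.12 under median-of-ratios scaling.

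Genes of goblet and absorptive cells were mostly lower as well. KRT20 (ENSG00000171431; GRCh38 chromosome 17, 40875941 to 40885227, minus strand), the keratin of differentiated gut epithelium, was at 0.681, 0.328 and 1.048 TPM in LoVo EV, against 130.04, 121 and 119.9 TPM in DLD-1 EV (-6.23 ± 0.17 log2, SE; limma, adjusted p = 2.67e-07). TFF3, the trefoil peptide of goblet cells, measured 1.36, 0 and 0.746 against 72.1, 64.7 and 60.3 TPM, and TFF1, a trefoil peptide more typical of stomach, 4.13, 4.004 and 1.102 against 44.7, 45.8 and 41.0 TPM. Both peptides were lower in every LoVo EV library, with log2 differences of -5.38 and -3.57. The membrane mucins MUC13 (5.12 ± 0.975 against 30.4 ± 0.882 TPM) and MUC20 (20.8 ± 2.29 against 85.1 ± 2.29 TPM; SD, n = 3) and the secreted MUC5AC (-1.65 log2) were lower, whereas the membrane mucin MUC3A was higher, at 11.8, 12.9 and 12.8 against 1.49, 0.920 and 1.11 TPM (2.64 log2, limma, adjusted p = 9.01e-06). Of 17 goblet peptides and mucins tested, 12 were lower and 3 higher (median -1.20), beside 38.9% lower and 17.3% higher over all genes. Among absorptive genes, CDH17, which joins intestinal cells laterally, measured 12.7, 12.5 and 16.7 against 211, 208 and 171 TPM, and VIL1, the villin that bundles actin in microvilli, 2.91, 2.86 and 3.33 against 18.3, 15.8 and 13.8 TPM. On the same list, the phosphatase ALPP and the carbonic anhydrase CA12 were higher (2.23 and 1.85 log2). Neither is read here as a mark of absorptive cells, and how reads were shared between related phosphatase genes was not tested. There, 8 of 12 were lower and 3 higher; the list shares KRT20 with the keratins.

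All 12 colon epithelium markers were called lower in LoVo EV, 8 of them 2-fold or more, with a median of -1.31 log2 (-1.07 under median-of-ratios scaling). The smallest differences among the 12 were those of EPCAM and the simple-epithelial keratins. EPCAM, an adhesion molecule, measured 480.0 ± 36.8 against 725 ± 4.20 TPM, KRT8 2553 ± 248 against 4337 ± 95.7 TPM, KRT18 1736 ± 32.2 against 2901 ± 102 TPM and KRT19 2438 ± 204 against 3761 ± 48.0 TPM (SD, n = 3), with log2 differences between -0.60 for EPCAM and -0.77 for KRT8; KRT8 and KRT18 overlap on opposite strands. GPA33, a surface antigen of gut epithelium (0.872, 1.02 and 2.02 against 14.2, 12.9 and 9.66 TPM), and the lectin LGALS4 (1.96, 2.27 and 4.40 against 11.6, 8.11 and 6.27 TPM) were low in both lines and lower in LoVo EV. CLDN7 (-1.105) and ELF3 (-1.28) lay between. Both lines thus held abundant KRT8, KRT18, KRT19 and EPCAM, and CDH17 (-3.73), GPA33 (-2.54), CDH1 (-2.25) and VIL1 (-2.06) differed most.

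Keratins of other epithelia were compared with KRT20. KRT5 (4.14 ± 0.679 against 0.295 ± 0.0804 TPM) and KRT6A (4.62 ± 0.367 against 0.649 ± 0.141 TPM; SD, n = 3), keratins of stratified epithelium, were higher in LoVo EV, as was KRT4 (1.39 log2), all at under 5.1 TPM. Over the list, 8 were higher and 7 lower of 16 tested, but KRT4, KRT5 and KRT6A passed the filter on low values through LoVo EV alone, and with a filter of 5 TPM 3 were higher and 6 lower. Among surface glycoproteins, CEACAM5, the carcinoembryonic antigen, measured 2.84, 2.60 and 2.44 against 12.5, 11.6 and 9.97 TPM and CEACAM1 0.759, 0.812 and 1.07 against 7.24, 7.53 and 7.36 TPM. Both were lower in LoVo EV (-1.76 and -2.16 log2). The neural adhesion molecule L1CAM (4.88 ± 1.01 against 0.0712 ± 0.0434 TPM) and LY6D, a marker of stratified epithelium (9.72 ± 1.81 against 0.0671 ± 0.116 TPM; SD, n = 3), were higher. That list held 5 higher and 11 lower of 20, beside 17.3% and 38.9% over all genes. L1CAM and LY6D passed the filter on low values through LoVo EV alone, and with a filter of 5 TPM 3 were called higher.

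Cell junction and mesenchymal genes were then compared. CDH1, E-cadherin, reached 59.6, 60.7 and 80.3 TPM in the LoVo EV libraries and 303, 357 and 298 TPM in those of DLD-1 EV (-2.25 ± 0.14 log2, SE; limma, adjusted p = 9.49e-06). The desmosomal PKP2 (-1.87) and JUP (-1.11) and the epithelial splicing factor ESRP2 (-1.37) were lower too. DSC3, a desmosomal cadherin of stratified epithelium, was higher, at 9.42, 9.68 and 13.7 against 0.247, 0.0266 and 0.141 TPM (3.38 log2, adjusted p = 6.97e-06). Of 36 junction genes, 22 were lower and 5 higher, with a median of -0.63 log2. In the mesenchymal list 16 of 25 members were higher, 12 of them 2-fold or more, and 4 lower, with a median of 0.94 log2. Over all genes tested 17.3% were higher and 38.9% lower. Members such as MYL9 and PRRX1 were under 1 TPM in every DLD-1 EV library and passed the filter on low values through LoVo EV alone. The count and the median are therefore no support for a direction. With a filter of 5 TPM the members called lower went from 4 to 2, and those called higher stayed within 1.5 times of 16. Fibronectin, FN1, measured 67.6, 64.2 and 74.96 against 3.70, 4.20 and 3.52 TPM, the calcium-binding S100A4 1118, 1097 and 1407 against 163, 152 and 154 TPM and TPM2, a tropomyosin, 108, 107 and 84.3 against 4.94, 7.22 and 8.44 TPM. Each was higher in every LoVo EV library, by 3.86, 2.93 and 3.69 log2, as were the myosin light chain MYL9 (3.20) and the homeobox factor PRRX1 (3.34). VIM, vimentin, the usual mark of the mesenchymal state, measured 6.14, 6.03 and 5.53 against 6.97, 5.70 and 4.93 TPM, with overlapping values and no call (limma, adjusted p = 0.939), and ITGA5, the fibronectin receptor subunit, was lower (-1.52 log2). Among matrix genes, COL6A1 (29.6 ± 3.29 against 0.616 ± 0.157 TPM) and COL6A2 (13.46 ± 0.443 against 0.121 ± 0.0114 TPM), chains of collagen VI, were higher, whereas the laminin receptor subunit ITGA6 was lower (23.8 ± 7.20 against 122 ± 7.73 TPM; SD, n = 3); 8 of 29 integrin and matrix genes were higher and 13 lower (10 and 10 under median-of-ratios scaling). Of the 3 fibroblast markers tested, COL1A1 (11.9, 14.3 and 9.19 against 2.47, 2.49 and 2.30 TPM) and ACTA2 (11.996, 11.1 and 13.3 against 4.49, 6.10 and 5.92 TPM) were higher and PDGFRB lower, while COL1A2, POSTN and DCN were at 0 in all 6 libraries; the part of such cells in these differences was not tested.

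**Figure D3:**
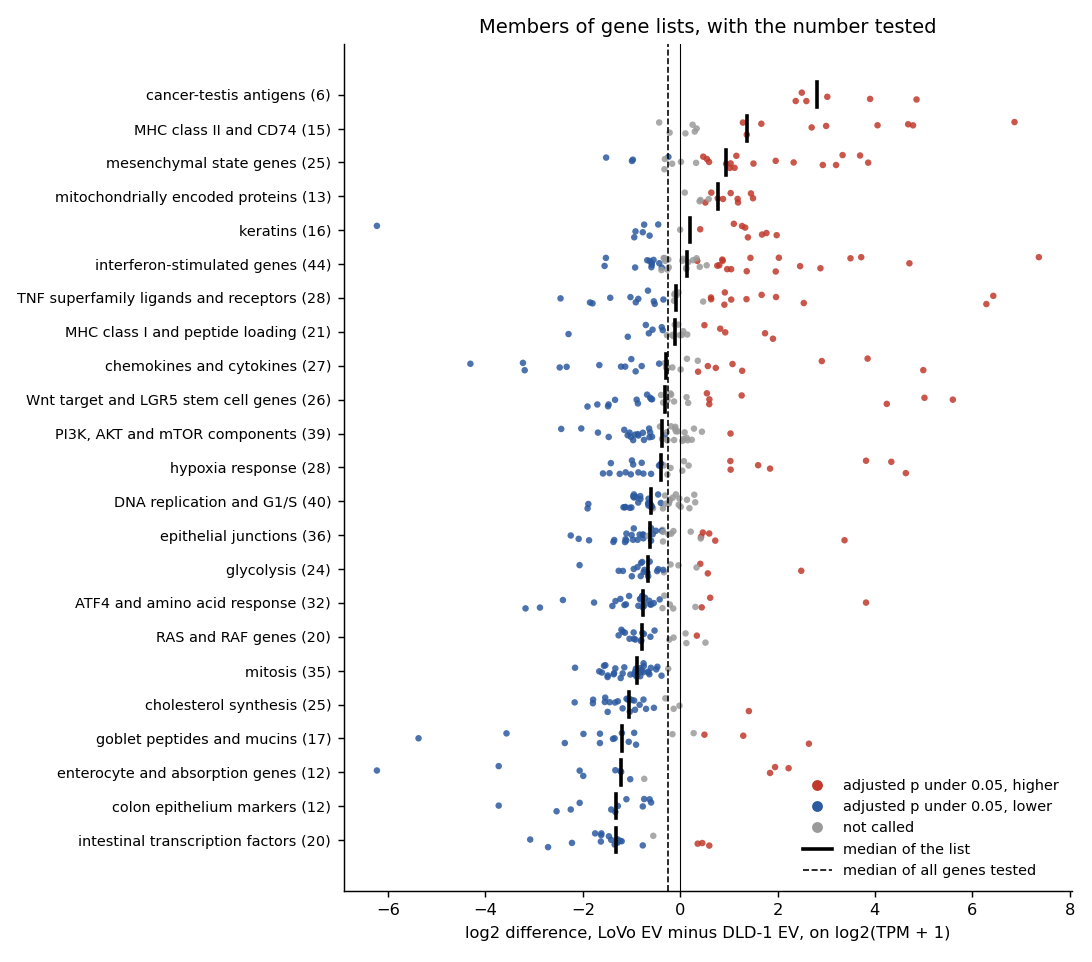
Log2 difference (LoVo EV minus DLD-1 EV) of each tested member of 23 gene lists, with the number tested in brackets; points are genes, coloured by call, short bars are list medians and the dashed line is the median of all genes tested. Medians run from -1.32 for intestinal transcription factors to 2.81 for cancer-testis antigens.

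Wnt pathway targets differed in both directions. Among the named members above 1 TPM in all 6 libraries, the largest differences were on the LoVo-high side. DKK1, a secreted Wnt antagonist, measured 43.02, 47.4 and 52.7 TPM in LoVo EV and was listed at 0 in all DLD-1 EV libraries. It passed the filter on low values through LoVo EV alone, so its direction was fixed. APCDD1 (253, 247 and 379.8 against 7.92, 7.96 and 7.82 TPM) and NOTUM (75.6, 64.0 and 79.7 against 2.92, 2.47 and 3.33 TPM), both feedback inhibitors of Wnt, were also higher, by 5.02 and 4.24 log2 (limma, adjusted p = 6.64e-07 for both). The nuclear partner LEF1 was higher (79.9 ± 8.49 against 32.6 ± 1.21 TPM), and the ephrin receptors EPHB2 (7.22 ± 1.80 against 25.4 ± 2.43 TPM) and EPHB3 (10.6 ± 1.51 against 28.3 ± 2.68 TPM; SD, n = 3) were lower. Of 26 targets tested, 7 were higher and 11 lower (9 and 9 under median-of-ratios scaling), beside 17.3% and 38.9% over all genes. Within the TGF-beta family, BMP7 was higher in LoVo EV (13.04, 14.3 and 21.05 against 0.0872, 0.0479 and 0.265 TPM) and BMP2 lower (0.577, 0.555 and 0.507 against 13.8, 16.2 and 14.8 TPM), while BMP4 was abundant in both, at 958 ± 82.9 and 874 ± 18.9 TPM, without a call. TGFBR2, the type II receptor, was lower in LoVo EV (12.2, 13.4 and 18.7 against 46.6, 49.9 and 48.4 TPM, -1.66 log2, limma, adjusted p = 9.39e-05). The TGF-beta list held 7 higher and 16 lower of 33 (12 and 12 under median-of-ratios scaling), beside the same shares over all genes. BMP7 passed the filter on low values through LoVo EV alone, and BMP2 through DLD-1 EV alone.

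CDKN1A, a cell cycle inhibitor, stood at 131, 151 and 197 TPM in LoVo EV and at 41.9, 43.5 and 44.6 TPM in DLD-1 EV (1.84 ± 0.15 log2, SE; limma, adjusted p = 3.84e-05). PHLDA3, an inhibitor of AKT, measured 23.95, 21.99 and 25.7 against 4.22, 3.16 and 2.61 TPM, and AEN, a nuclease of apoptosis, 8.45, 9.504 and 14.1 against 2.56, 3.02 and 3.40 TPM. Both were higher in all LoVo EV libraries (2.54 and 1.53 log2). GDF15 (0.57) and PLK3 (1.51) were higher too, and ACER2 was lower (2.07, 1.49 and 2.13 against 11.5, 10.6 and 8.68 TPM).

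Called components of the RAS and PI3K pathways were mostly lower in LoVo EV. MAPK3, the kinase ERK1, was at 59.99, 67.0 and 82.8 TPM in LoVo EV, against 149.8, 164 and 147 TPM in DLD-1 EV. The exchange factor SOS1 (-1.26) and the RAS inactivator NF1 (-0.96) were lower as well, and HRAS, at 52.6, 49.0 and 43.97 against 43.1, 46.3 and 44.9 TPM, was not called. Of 20 RAS and RAF pathway genes, 14 were lower and 1, the kinase MAP2K2, was higher (0.34 log2, limma, adjusted p = 0.0403). That call was lost without LoVo EV replicate 1 or 2 or DLD-1 EV replicate 1 or 2 (adjusted p = 0.0832 to 0.152), with the replicate block (0.107), with no trend (0.0735) and with no filter on low values (0.0732). Among outputs of ERK, EREG, the growth factor epiregulin, was lower (23.9, 27.5 and 45.1 against 175, 184 and 172 TPM), while the phosphatase DUSP4 (12.9 ± 2.004 against 3.01 ± 0.166 TPM) and the AP-1 subunit FOSL1 (49.3 ± 5.26 against 11.4 ± 1.51 TPM) were higher; 9 of 26 were higher and 9 lower (13 and 8 under median-of-ratios scaling). In the PI3K pathway, the adaptor GAB1 measured 1.81, 2.31 and 3.68 against 20.01, 19.2 and 15.5 TPM and PIK3CA, the target of alpelisib, 5.43, 5.77 and 8.71 against 12.3, 10.4 and 12.8 TPM. Both were lower in LoVo EV (-2.44 and -0.77 log2), and PIK3CD, the delta isoform, was higher (1.03). The list held 19 lower and 1 higher of 39, 16 and 6 under median-of-ratios scaling, and 2 higher without DLD-1 EV replicate 3. Over all genes tested 38.9% were lower and 17.3% higher. The median of the PI3K list was -0.37 log2, near the -0.25 of all genes, and that of the RAS and RAF list was -0.79. Of 28 receptor tyrosine kinases, 11 were higher and 11 lower, beside 17.3% higher and 38.9% lower over all genes. FGFR4 (13.2 ± 1.39 against 3.25 ± 0.499 TPM) was higher, and KIT and ERBB3 (43.4 ± 0.618 against 109.5 ± 7.98 TPM, SD, n = 3) were lower.

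LIN28B, the factor the study overexpressed, was low in both EV groups, at 4.91, 3.66 and 3.87 TPM in LoVo EV and 2.74, 1.17 and 1.38 TPM in DLD-1 EV (0.93 log2, limma, adjusted p = 0.0105); its values were seen before it was named here. Of its known downstream genes, which let-7 represses, HMGA2, a chromatin protein, was higher in LoVo EV (56.8, 63.7 and 74.7 against 18.1, 19.5 and 17.54 TPM; 1.76 log2, adjusted p = 2.24e-05), and so was CCND2, cyclin D2 (10.95, 10.9 and 10.2 against 0.0115, 0 and 0.0291 TPM). The let-7 processing enzyme DICER1 was lower (-1.17 log2). CCND2 passed the filter on low values through LoVo EV alone, so its direction was fixed. Across the 19 list members tested, 7 were higher, 4 lower and 8 not called, beside 17.3% higher and 38.9% lower over all genes. Whether any of these levels relates to that of LIN28B was not tested.

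In cholesterol synthesis, driven by the factor SREBP2, 21 of 25 members were lower in LoVo EV, 14 of them 2-fold or more, with a median of -1.05 log2 (-0.78 under median-of-ratios scaling). HMGCS1, which makes the precursor of mevalonate, measured 91.8, 87.5 and 141 against 467, 468 and 481 TPM, and the sterol demethylating MSMO1 89.3, 85.7 and 118 against 334, 326 and 353 TPM. Every LoVo EV value lay far below DLD-1 EV (-2.17 and -1.79 log2). Of the rest, 1 was higher. In the amino acid response run by ATF4, 24 of 32 were lower and 3 higher. TRIB3, a pseudokinase, measured 17.2, 15.7 and 20.9 against 169, 165 and 173 TPM, the serine synthesis enzyme PHGDH 28.6, 33.1 and 44.3 against 125, 133 and 106 TPM and the transporter SLC1A4 1.03, 1.32 and 1.65 against 15.9, 17.4 and 15.04 TPM, all lower in LoVo EV (-3.18, -1.77 and -2.88 log2). STC2, a secreted glycoprotein in the same list, was higher (11.9, 14.3 and 14.3 against 0.0340, 0 and 0.0430 TPM).

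The main glucose transporters differed in opposite directions. SLC2A1, the glucose transporter GLUT1, reached 375, 497 and 637 TPM in the LoVo EV libraries and 1237, 1275 and 1044 TPM in those of DLD-1 EV, and SLC2A3, the transporter GLUT3, 167, 183 and 238 against 33.4, 38.2 and 30.03 TPM. The log2 differences were -1.26 and 2.49 (limma, adjusted p = 0.000736 and 9.47e-06). The lactate transporter SLC16A1 (-2.07), HK2 (-0.99) and PFKL (-0.78) were lower; 17 of 24 glycolysis genes were lower and 3 higher. Of 28 hypoxia response genes, 7 were higher and 15 lower (10 and 11 under median-of-ratios scaling), beside 17.3% and 38.9% over all genes. CA9, a carbonic anhydrase induced by HIF-1, measured 159, 142 and 165 against 6.68, 5.56 and 8.12 TPM and the mitophagy receptor BNIP3 84.5, 94.6 and 127 against 2.92, 2.29 and 4.27 TPM. Both were many times higher in each LoVo EV library (4.34 and 4.63 log2), while EGLN3, a HIF prolyl hydroxylase, and PLOD2, a collagen lysyl hydroxylase, were lower (42.9 ± 6.61 against 129.7 ± 2.87 and 80.2 ± 11.1 against 216 ± 9.23 TPM; SD, n = 3).

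Of the 13 protein genes of the mitochondrial genome, 9 were called higher in LoVo EV and 0 lower, and 5 were called higher with no filter on low values. The values did not overlap in 6 of the 13. MT-CO2, a subunit of cytochrome oxidase, stood at 21859, 20982 and 13103 TPM in LoVo EV and at 6006, 6208 and 7179.8 TPM in DLD-1 EV (1.496 log2, limma, adjusted p = 0.000442), and MT-CYB 6711, 6327 and 3763 against 1761, 1917 and 2302 TPM (1.45 log2, adjusted p = 0.000853). LoVo EV replicate 3 was nearest to DLD-1 EV in both, and MT-ND1 overlapped between the lines (8089, 7737 and 4978 against 4663, 4974 and 5861 TPM) without a call, and was called higher without replicate 3 (0.62 log2, limma, adjusted p = 0.00179). These transcripts are a varying share of poly(A) libraries, and whether the difference lies in the cells or in the preparation was not tested.

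Genes of cell division were almost without exception lower in LoVo EV or not called. Of 35 mitotic genes 34 were called lower and 0 higher, with a median of -0.90 log2 (29 lower and -0.65 under median-of-ratios scaling). TOP2A, the topoisomerase that untangles chromosomes, measured 39.8, 40.7 and 47.5 against 111, 114 and 109 TPM, and AURKA, a spindle kinase, 18.7, 18.6 and 27.5 against 62.8, 70.98 and 61.0 TPM. In both, the highest LoVo EV library stayed below the lowest DLD-1 EV library (-1.36 and -1.56 log2), and CDC25C (-2.16), NEK2 (-1.49) and KIF11 (-1.54) had the same sign. In DNA replication and the G1/S transition, 24 of 40 were lower and 0 higher. RRM2, a subunit of ribonucleotide reductase, measured 41.2, 54.5 and 83.1 against 234, 249 and 174 TPM and PCNA, the sliding clamp, 110.2, 123 and 138 against 220.4, 220.4 and 212 TPM, whereas the helicase subunit MCM7 was not called (119 ± 14.9 against 96.7 ± 6.49 TPM; SD, n = 3). MCM7 was called higher without LoVo EV replicate 1 (0.38 log2, limma, adjusted p = 0.0319) and under median-of-ratios scaling.

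Germline and developmental genes were compared next. All 6 of 44 cancer-testis antigens that passed the filter on low values, genes normally confined to germ cells, were higher in LoVo EV, but a gene silent in 1 line can only pass through the other, so this count is no support for a direction. MAGEB2 measured 23.6, 25.7 and 35.8 TPM in LoVo EV and 0 in each DLD-1 EV library, MAGEA3 11.2, 13.8 and 18.4 against 0.0492, 0 and 0 TPM, and PRAME 3.99, 4.81 and 8.22 against 0.110, 0 and 0.0972 TPM. MAGEA2 and MAGEA2B are near-identical copies and their levels are uncertain. HOX genes, which record position along the body axis, were lower in 11 and higher in 3 of 26 cases, beside 38.9% lower and 17.3% higher over all genes tested: HOXA5 (12.2 ± 1.34 against 42.4 ± 4.53 TPM) and HOXA6 (8.03 ± 0.578 against 37.95 ± 3.67 TPM) were lower, HOXB5 (56.4 ± 10.6 against 20.5 ± 2.52 TPM; SD, n = 3) was higher.

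Transport and drug handling genes divided by member. CFTR, the chloride channel of secretory epithelium, was at 4.31, 2.41 and 2.25 TPM in LoVo EV, against 43.4, 41.9 and 31.9 TPM in DLD-1 EV. KCNE3, a potassium channel subunit, measured 2.53, 1.30 and 2.83 against 31.9, 34.7 and 33.03 TPM. The calcium-gated potassium channel KCNN4 was opposite, at 23.1, 19.6 and 18.9 against 0.701, 0.737 and 0.779 TPM. Log2 differences were -3.35, -3.44 and 3.63 (limma, adjusted p = 1.2e-05, 7.52e-06 and 1.61e-06). The list held 6 higher and 10 lower of 20 (8 and 9 under median-of-ratios scaling), beside 17.3% and 38.9% over all genes. KCNN4 passed the filter on low values through LoVo EV alone, and with a filter of 5 TPM 3 were called higher. For drug metabolism, 13 were higher and 13 lower of 34 tested (14 and 12 under median-of-ratios scaling), beside the same shares over all genes. The export pump ABCC2 (19.3 ± 3.45 against 0.713 ± 0.412 TPM), the cytochrome CYP3A5 (17.6 ± 2.45 against 1.54 ± 0.262 TPM) and the retinal dehydrogenase ALDH1A3 (42.5 ± 7.35 against 2.33 ± 0.593 TPM) were higher in LoVo EV. AKR1C3 (1.26 ± 0.212 against 18.1 ± 2.39 TPM) and GSTM3, a glutathione transferase (27.5 ± 2.33 against 141 ± 4.43 TPM; SD, n = 3), were lower.

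Genes close to being present in 1 line alone were counted without a test. At 5 TPM or more in all 3 libraries of a line and under 0.5 TPM in all 3 of the other, 107 genes were present in LoVo EV, 90 of them protein-coding, and 20 in DLD-1 EV, 19 of them protein-coding. Of these, 21 and 4 were listed at 0 in all 3 libraries of the other line. BST2, DMKN, H2AJ, TNFRSF6B, GTSF1 and ABHD12B were the protein-coding genes of highest mean level in the LoVo EV set, and RASSF10 (0.102, 0.164 and 0.0329 against 12.3, 17.4 and 14.8 TPM) in the DLD-1 EV set. The number of genes above 0 TPM was also larger in LoVo EV, 24632 to 25004 against 23010 to 23776, and the part of sequencing depth, which is unknown, was not tested.

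Nuclear chromosomes differed in their median. On TPM, the median log2 difference was -0.50 for chromosome 2 (1028 genes tested), -0.50 for chromosome 18 (212 genes) and -0.49 for chromosome 4 (513 genes), and it was -0.01 for chromosome 7 (812 genes), -0.05 for chromosome 22 (401 genes) and -0.07 for chromosome 19 (1107 genes). Chromosome 7 had 25.5% of its genes called higher in LoVo EV and 24.6% lower, against 11.9% and 52.1% on chromosome 2. After median-of-ratios scaling these medians were 0.21 for chromosome 7 and -0.27 for chromosome 2, in the same order as before. Gene copy number was not measured, and its part was not tested.

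**Figure D4:**
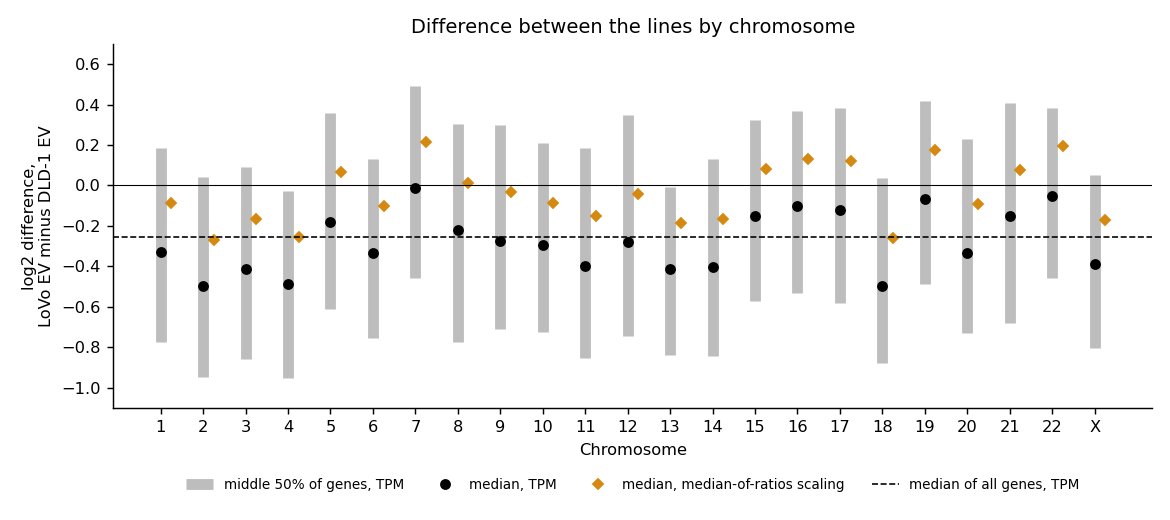
Median log2 difference (LoVo EV minus DLD-1 EV) of the genes tested on each chromosome, as TPM (black, with the middle 50% of genes in grey) and after median-of-ratios scaling (diamonds); the dashed line is the median of all genes, -0.25. Among the nuclear chromosomes drawn, 7, 22 and 19 lie highest and 2, 18 and 4 lowest on both scales.

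The other groups show how far the markers follow the labels. CD74 was at most 3.16 TPM in the libraries labelled LoVo LIN28B and at most 2.32 TPM with alpelisib, against 258 to 287 TPM in LoVo EV. TFF3 measured 63.6, 64.4 and 61.0 TPM in the LoVo-labelled LIN28B libraries, near the 72.1, 64.7 and 60.3 TPM of DLD-1 EV. KRT20 lay between the 2 EV groups there, at 4.90, 4.95 and 4.32 TPM, as did BST2, at 7.503, 7.58 and 7.28 TPM. CALB1 remained high, at 138.5 to 246 TPM over the 6 LoVo-labelled LIN28B libraries, and was at most 1.38 TPM in the 9 DLD-1 libraries. In DLD-1 LIN28B, KRT20 was 118, 114 and 111 TPM and TFF3 59.4, 58.99 and 58.96 TPM. These values are descriptions; no comparison of LIN28B with EV was made here.

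**Figure D5:**
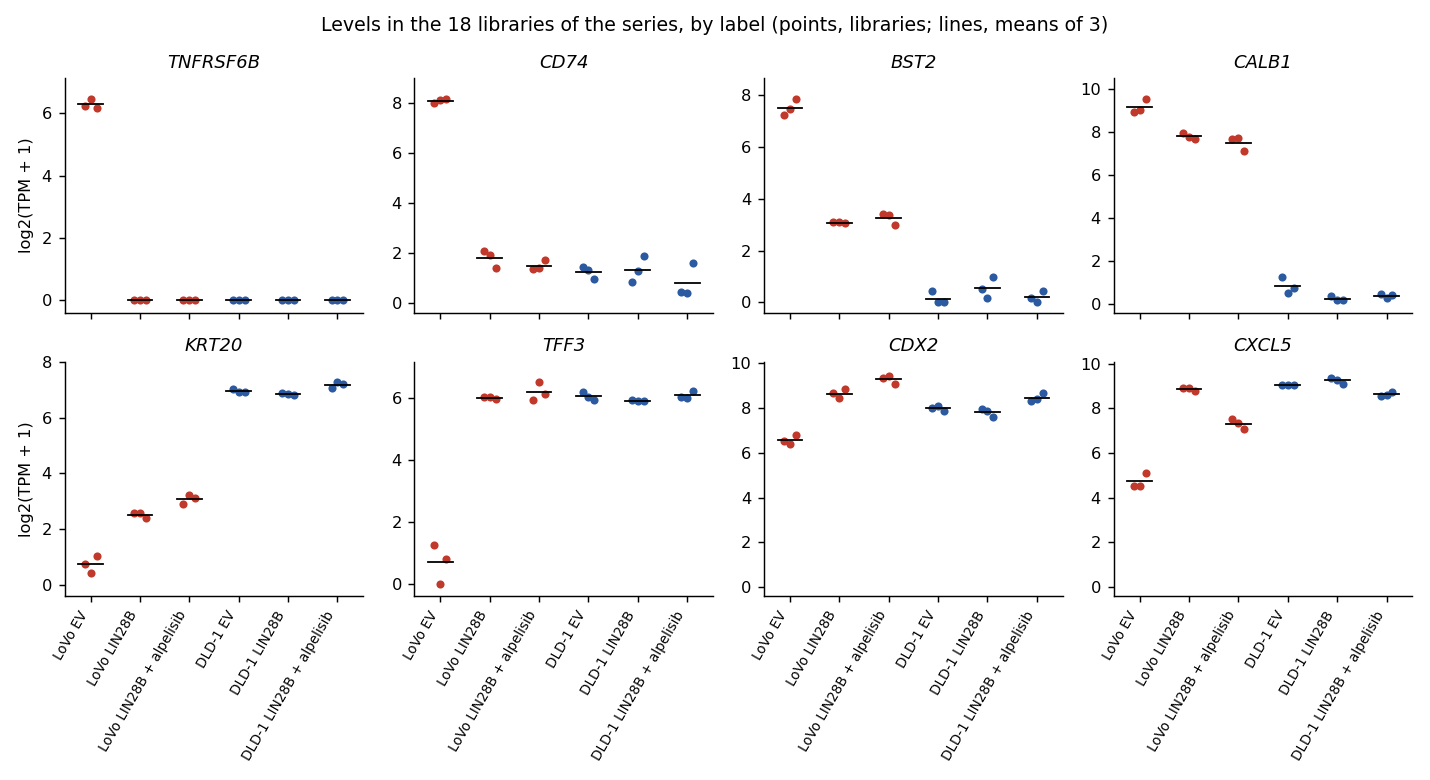
Levels of 8 genes in all 18 libraries as log2(TPM + 1), by label; points are libraries (LoVo-labelled red, DLD-1 blue) and lines are means of 3. TNFRSF6B and CD74 are high in LoVo EV alone, CALB1 is high in all LoVo-labelled groups, and TFF3, CDX2 and CXCL5 are lower in LoVo EV than in the other 5 groups.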

How the data were processed

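Levels of 61806 genes in 18 RNA-seq libraries were deposited by the authors as 1 table of TPM values, of which the 3 LoVo EV and 3 DLD-1 EV columns were compared. The submitters' processing notes name STAR 2.7.10, Picard, HTSeq, DESeq2 and the genome build hg38; how TPM was derived and whether strand was used in counting are not given in the sources used here. The authors' TPM values carry no read depth, so counting error could not be given. Gene IDs were matched to symbols (61757 of 61806) and to GENCODE 29 positions on GRCh38 (58254).

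The genes tested reached 1 TPM in 3 or more of the 6 libraries. Then log2(TPM + 1) was fitted with limma 3.58.1 in R 4.3.3 (eBayes with a mean-variance trend), and p-values were adjusted by Benjamini-Hochberg over 16038 genes. A log2 difference on this scale understates the change of low genes. With 3 libraries against 3, an exact permutation test of a single value could not give a p under 0.1, so none was run. The fit was tested on simulated data.

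The members and gene lists were chosen with earlier results of these data known, and lists are therefore described by counts and medians, with no test of a list. Genes named are the 12 largest differences in each direction among called genes without overlap and with a group mean of 5 TPM or more, up to 6 members of each list with the smallest p and up to 3 abundant members not called, the genotype genes and the cell markers. Alternatives were another pseudocount, filter, scaling or trend setting, TPM without the mitochondrial genome, all 18 libraries, a replicate block and each library left out. Some genes are not reported here.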

Additional observations from a re-analysis of the deposited data

How the results depend on the processing

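The number of genes differing stayed within 1.5 times of 9014 under all 14 alternatives tried, from 7250 without LoVo EV replicate 2 to 10112 without LoVo EV replicate 3, and lower calls outnumbered higher calls in each when no size was asked for. With a filter of 5 TPM, 1705 genes were higher, 729 of them 2-fold or more, fewer genes being tested. By 2-fold or more, 1816 were higher and 1297 lower under median-of-ratios scaling, and 1718 and 1603 in TPM without the mitochondrial genome, the order of the directions being turned in both. Without the 2-fold limit, that TPM gave 3579 higher and 5204 lower. Same-numbered libraries did not deviate together (r = -0.107, -0.0565 and -0.223), and with a replicate block 7807 genes differed, 2438 higher and 5369 lower. Of 197 genes named in the text and tested, 184 were called, and 183 of these kept their call and direction in every alternative that tested them; the exception was MAP2K2. Among uncalled genes, 2 changed sign. HLA-C turned to 0.018 without the mitochondrial genome and 0.11 under median-of-ratios scaling. With 1 library left out, VIM ran from -0.084 (without DLD-1 EV replicate 3) to 0.13 (without DLD-1 EV replicate 1); the cause was not tested.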

Other observations

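Among genes at 5 TPM or more in all 3 libraries of 1 line and under 0.5 TPM in all 3 of the other, further members with a known role were read after their values were seen. In LoVo EV these included the glycosyltransferase B4GALNT4 at 35.5, 39.9 and 22.8 TPM and the Wnt ligand WNT16 at 22.2, 26.1 and 33.3 TPM. In DLD-1 EV they included TIMP4, an inhibitor of metalloproteinases, at 14.3, 11.4 and 13.49 TPM, CHRNA1, a subunit of the muscle acetylcholine receptor, at 10.004, 10.55 and 11.5 TPM, and PIP5K1B, a phosphoinositide kinase, at 8.07, 8.66 and 6.83 TPM. INHBB, which encodes a subunit of activin and inhibin, measured 0.322, 0.225 and 0.227 TPM in LoVo EV and 6.90, 8.38 and 7.58 TPM in DLD-1 EV. These are descriptions of genes selected for being present in 1 line.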
